A study of Mus musculus with 16 samples.

Results

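The chromosome 19 odorant receptor cluster was taken as the receptor genes with annotation symbols Olfr1421 to Olfr1505, leaving out Olfr1490, Olfr1491, Olfr1494, Olfr1495 and pseudogenes. The rule reads symbols alone and no measured value, but it was set with earlier results of these data known. It found 50 genes of the 1080 odorant receptors on the array, each represented by 1 probe set, and the reference gene table places all of them on chromosome 19. By their receptor (MOR) family names, 6 belong to MOR239, 4 to MOR214, 2 to MOR215, 30 to MOR202, 1 to MOR127, 4 to MOR212 and 3 to MOR211. The gene table listed none of the 50 as a pseudogene, although the MOR names of Olfr1463, Olfr1474, Olfr1500 and Olfr1505 end in P. In the table's gene order they form 3 stretches separated by other genes: 12 receptors of the MOR239, MOR214 and MOR215 families, then 2 of MOR202, then 36 of MOR202, MOR127, MOR212 and MOR211.

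Odorant receptors are G protein-coupled receptors on the cilia of olfactory sensory neurons. Each mature neuron expresses a single receptor gene from a single allele, so the amount of a receptor transcript in a sorted fraction follows the neurons that chose that gene. Bound odorant activates the G protein Golf and adenylyl cyclase, and the resulting cyclic AMP opens a cation channel. S100a5, a calcium-binding protein, is expressed by olfactory sensory neurons in step with their activity, and a GFP reporter of it marks recently active neurons.

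S100a5-tauGFP mice of both sexes, 24 animals aged 7 to 12 weeks, were kept individually in clean-air chambers for 40 h at 3.1 L/min. From 26 h on, 10 s pulses of 2-hexanone, a ketone odorant, or of filtered air were given every 20 min. Olfactory mucosa of 3 mice was pooled and sorted by fluorescence into GFP+ and GFP- cells. The groups were 2-hexanone GFP+ cells, 2-hexanone GFP- cells, vehicle GFP+ cells and vehicle GFP- cells, with 4 pools each and 16 arrays in all. All groups carried the reporter, and its zygosity, the strain background and mice without it are not described in the labels. A fraction is defined by S100a5 promoter activity and not by the odor given, and fewer neurons expressing a receptor cannot be told apart from less of its RNA per neuron.

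The deposited values are log2 signals from Clariom S mouse arrays. They reached 19.81, above the 16 bits of the scanner, and how they were scaled or transformed is not stated. Whether this alters the differences and folds given here was not tested. As a background floor, the brightest of 23 background probe bins was taken on each array (6.16 to 7.33). The 95th percentile of the negative control probe sets was higher, at 8.53 to 9.47. A value above the floor can thus still lie among the negative controls. Counts of arrays above the floor, and folds bounded by it, rest on the floor alone and would differ with a higher one. S100a5 itself averaged 16.72 ± 0.38 in 2-hexanone GFP+ cells and 15.11 ± 0.15 in GFP- cells (SD, n = 4 each), a difference of 1.61 (adjusted p = 9.83e-05, limma with Benjamini-Hochberg adjustment over all 22206 probe sets). In vehicle the difference was 1.38 (adjusted p = 0.000514). Between 25 and 34 of the 50 cluster receptors lay above the floor on an array.

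The levels of the cluster receptors spanned the range from bright to unmeasured. Olfr1423 was the brightest, with a mean over 16 arrays of 13.22 on the log2 scale (12.36 to 14.23). It was followed by Olfr1427 at 12.29, Olfr1428 at 12.14 and Olfr1425 at 11.96, all of them MOR239 receptors, and by Olfr1484 of MOR202 at 11.04. The dimmest were Olfr1441 at 3.17, Olfr1465 at 3.33 and Olfr1453 at 3.62. Different probe sets bind with different strength, so this order describes signals and not transcript amounts, and neighbours in it with overlapping array values are not separated. On all 16 arrays, 13 of the 50 (26.0%) were above the floor and 10 (20.0%) were under it, against 39.2% and 12.0% of the 1030 receptors outside the cluster. The 10 under it everywhere were Olfr1436, Olfr1441, Olfr1445, Olfr1453, Olfr1457, Olfr1462, Olfr1465, Olfr1472, Olfr1475 and Olfr1499, and 27 were above it on some arrays.

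Most receptors of the cluster differed between the sorted fractions, some higher and some lower in GFP+ cells. Under 2-hexanone, 18 of 50 were higher and 16 lower in GFP+ than in GFP- cells at an adjusted p under 0.05, and 16 did not pass. Over all 22206 probe sets, 5.29% were higher and 9.56% lower. Over the receptors outside the cluster, 36.2% were higher and 21.3% lower. In vehicle, 16 of 50 were higher, 17 lower and 17 did not pass, where all probe sets had 5.83% higher and 9.86% lower and the other receptors 36.2% and 21.6%. The median difference of the 50 was 0.20 under 2-hexanone and 0.24 in vehicle, beside 0.14 and 0.14 over all probe sets and 0.48 and 0.43 over the other receptors. The GFP+ and GFP- arrays did not overlap for 17 higher and 17 lower members under 2-hexanone and for 15 and 17 in vehicle. The shares over all probe sets were 9.4% and 10.6% under 2-hexanone and 9.01% and 10% in vehicle. Over the receptors outside the cluster they were 35.4% and 21.1% under 2-hexanone and 33.9% and 21.2% in vehicle. Of the called probe sets on the whole array, 35.6% were higher in GFP+ under 2-hexanone as deposited, 48.0% after quantile normalization and 83.2% after centring each array on its median. In vehicle those shares were 37.2%, 49.0% and 83.7%. For the 50 receptors the counts were 22 higher and 16 lower under 2-hexanone and 21 and 16 in vehicle after centring, which moved the median of all probe sets to 0.49 and 0.50.

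**Figure D1:**
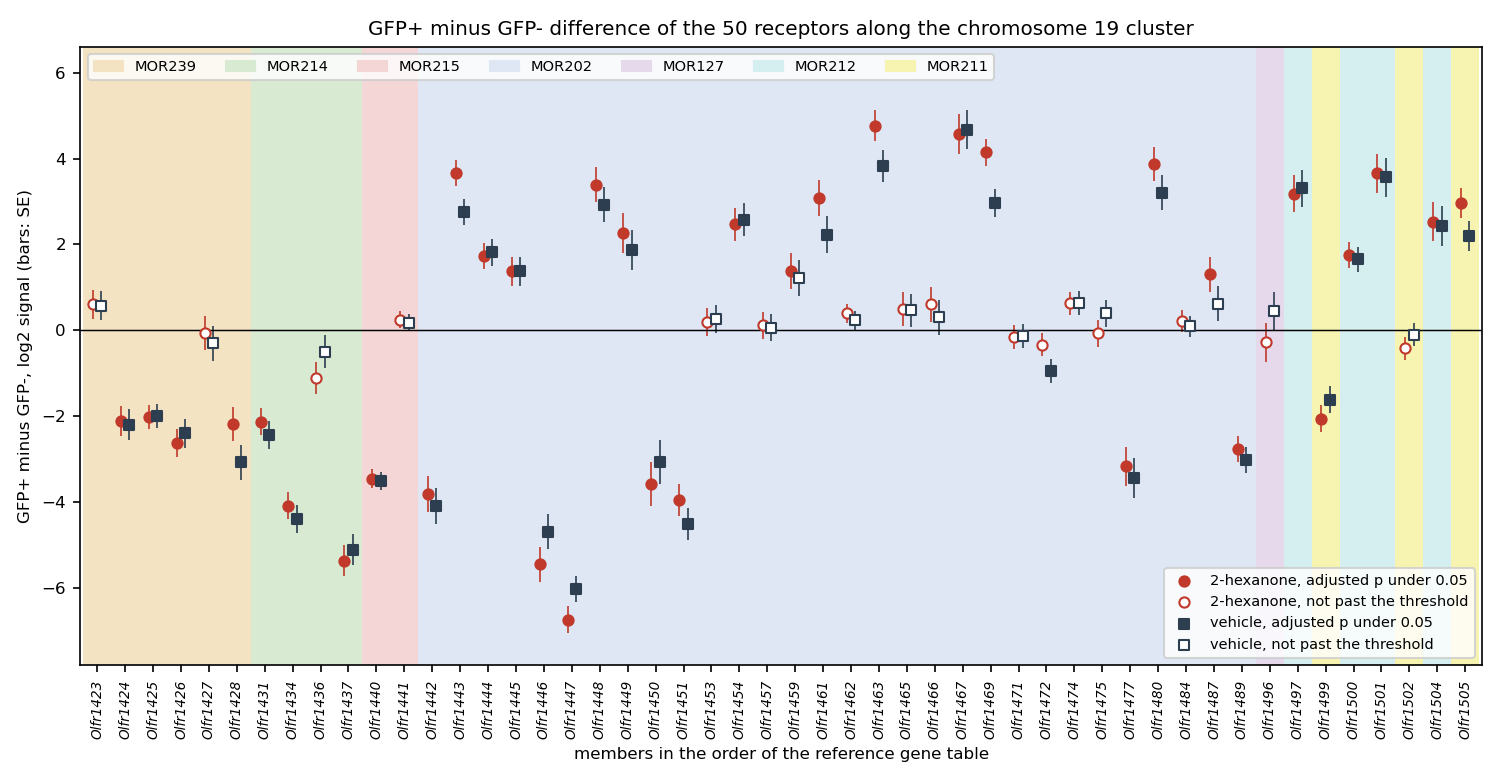
GFP+ minus GFP- difference in log2 signal (vertical axis) of the 50 receptors in gene table order (horizontal axis), under 2-hexanone (red circles) and in vehicle (dark squares). Bars are standard errors, filled symbols have an adjusted p under 0.05, and background colours mark MOR families. No receptor of MOR239, MOR214 or MOR215 was called higher, whereas MOR202 held receptors from -6.75 to 4.77.

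The fractions also differed in markers of other cells, given here as levels averaged over each list. All 8 immune genes were lower in GFP+ cells in both treatments (averages of 5.32 to 5.64 in 2-hexanone GFP+, 13.43 to 14.00 in 2-hexanone GFP-, 4.80 to 5.79 in vehicle GFP+ and 12.19 to 14.64 in vehicle GFP-). Immature neuron genes were lower for 4 of 6, with averages of 8.73 to 9.44 in 2-hexanone GFP+ against 10.93 to 11.42 in 2-hexanone GFP-, and 8.65 to 9.28 in vehicle GFP+ against 10.996 to 11.42 in vehicle GFP-. Sustentacular genes were lower for 5 of 6 in both treatments (6.98 to 7.37 in 2-hexanone GFP+ against 9.04 to 9.43 in 2-hexanone GFP-, and 6.36 to 7.03 in vehicle GFP+ against 8.68 to 9.58 in vehicle GFP-). Of 5 measured proliferating and basal cell genes, 3 were lower in both (3.72 to 4.31 in 2-hexanone GFP+ against 5.79 to 6.26 in 2-hexanone GFP-, and 4.11 to 4.42 in vehicle GFP+ against 5.76 to 6.57 in vehicle GFP-). Of 8 mature neuron genes, 0 were lower and 1 was higher under 2-hexanone and 2 in vehicle. Averages were 17.745 to 17.95 in 2-hexanone GFP+ against 17.46 to 17.78 in 2-hexanone GFP-. In vehicle they were 17.58 to 18.08 in GFP+ against 17.49 to 17.79 in GFP-. The difference was positive for 8 of the 8 under 2-hexanone and for 7 in vehicle. Its median was 0.22 and 0.18, beside 0.14 and 0.14 over all probe sets. The part of these cells in the receptor differences was not tested.

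The first stretch held no receptor enriched in GFP+ cells. Of its 12 receptors, 8 were called lower and 0 higher in each treatment, with a median difference of -2.12 under 2-hexanone and -2.30 in vehicle. The MOR239 family supplied 4 of the 8. Olfr1428 had 11.42, 12.24, 10.42 and 11.40 in 2-hexanone GFP+ cells, against 13.79, 13.00, 13.96 and 13.51 in GFP- cells. In vehicle it had 10.92, 10.19, 9.08 and 10.91 in GFP+ cells, against 13.16, 13.68, 13.72 and 12.88 in GFP- cells. Every GFP+ array lay below every GFP- array in both treatments, with differences of -2.19 ± 0.40 (SE, adjusted p = 0.000552) and -3.08 ± 0.40 (adjusted p = 1.33e-05), 4.57-fold and 8.48-fold lower. Olfr1425 stayed well above background in GFP+ cells, with 11.12 ± 0.45 in 2-hexanone GFP+ cells and 13.15 ± 0.40 in GFP- cells (SD, n = 4 each), a difference of -2.02 (adjusted p = 2.63e-05). In vehicle it had 10.79 ± 0.51 in GFP+ cells and 12.79 ± 0.27 in GFP- cells (adjusted p = 2.92e-05). Olfr1424 was at least 3.28-fold lower under 2-hexanone, and 2.89-fold lower in vehicle, where 1 of 4 GFP+ arrays was above the floor and the others were set to it. Olfr1426, with 3 of 4 GFP+ arrays above the floor in each treatment, was 5.93-fold and 5.29-fold lower by the same reckoning. The other two MOR239 receptors did not pass. Olfr1427 differed by -0.07 under 2-hexanone (95% interval -0.92 to 0.78) and by -0.30 in vehicle (-1.15 to 0.55). Olfr1423, the brightest of the cluster, differed by 0.61 (-0.10 to 1.31) and 0.57 (-0.14 to 1.28), and only centring of the arrays among the alternatives brought it past the threshold.

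MOR214 and MOR215, next in order, held 4 receptors that were lower in GFP+ cells and 0 that were higher, in each treatment. Olfr1437 had 4.90, 5.28, 6.31 and 4.52 in 2-hexanone GFP+ cells, against 10.66, 10.83, 10.18 and 10.85 in GFP- cells. In vehicle it had 6.11, 4.998, 4.90 and 4.82 in GFP+ cells, against 10.06, 10.52, 9.75 and 10.96 in GFP- cells. All 8 GFP+ arrays lay under their background floors and all 8 GFP- arrays far above them. The fitted differences were -5.38 ± 0.36 (SE, adjusted p = 4.09e-09) and -5.12 ± 0.36 (adjusted p = 8.24e-09). With the dim side set to the floor, Olfr1437 was at least 14.9-fold lower under 2-hexanone and at least 14.6-fold lower in vehicle. Olfr1434 was at least 2.94-fold and 3.92-fold lower by the same reckoning, with fitted differences of -4.09 and -4.40. Olfr1440 of MOR215 was above the floor on every array. Its mean was 7.73 ± 0.48 in 2-hexanone GFP+ cells and 11.19 ± 0.11 in GFP- cells, and 7.27 ± 0.25 in vehicle GFP+ cells and 10.78 ± 0.21 in GFP- cells (SD, n = 4 each). That is 11.01-fold lower under 2-hexanone (adjusted p = 1.49e-09) and 11.4-fold lower in vehicle (adjusted p = 1.27e-09). Olfr1431, with 3 of 4 GFP+ arrays above the floor in each treatment, was 4.14-fold and 4.60-fold lower with the other array at its floor. Olfr1436 lay under the floor on all arrays and differed by -1.11 under 2-hexanone, where its adjusted p was 0.0595 without and 0.0473 with the pools as a block, and by -0.50 in vehicle. Olfr1441 was not measured above background on any array.

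**Figure D2:**
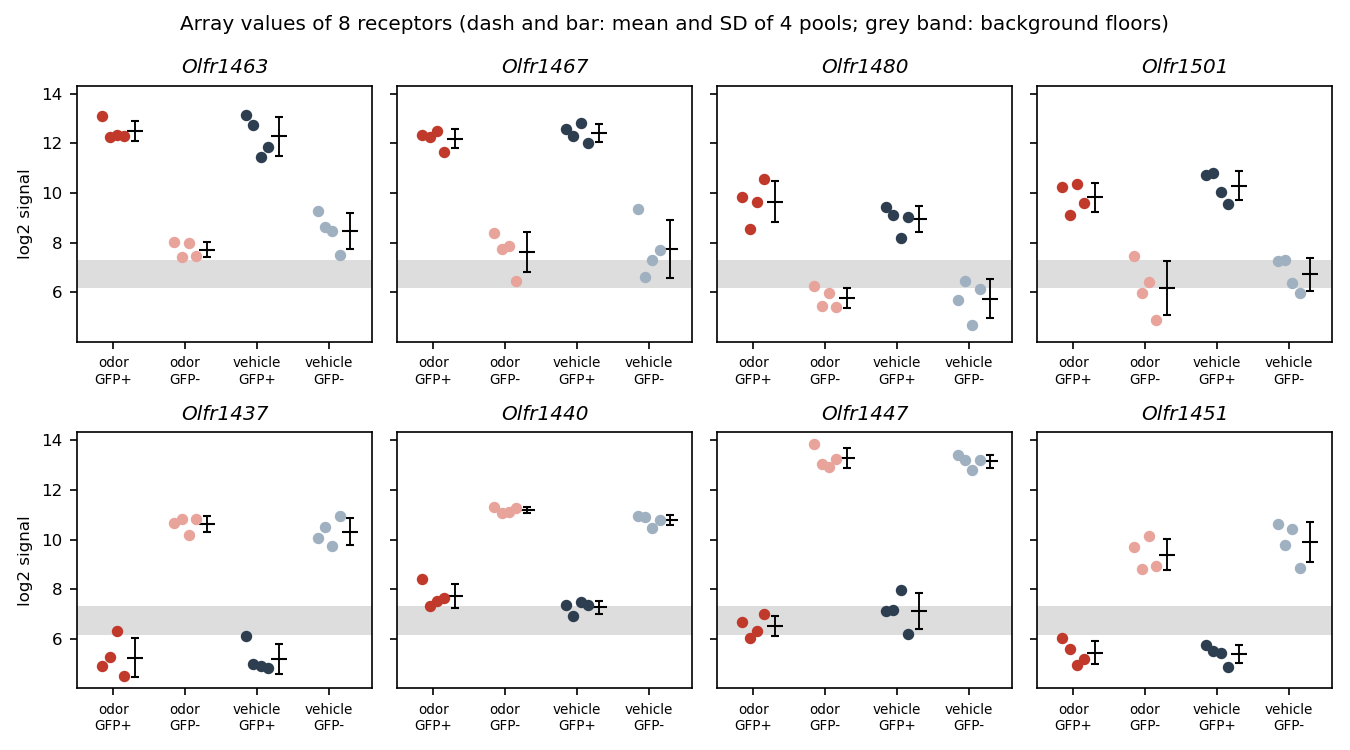
Log2 signal (vertical axis) of 8 receptors on each of 16 arrays, by group (horizontal axis); points are pools, dashes and bars are mean and SD of 4 pools, and the grey band spans the background floors of 6.16 to 7.33. The upper row shows receptors higher in GFP+ cells and the lower row receptors lower in GFP+ cells, and no GFP+ array overlaps a GFP- array of the same treatment.

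MOR202, the largest family of the cluster, held receptors called in both directions. Of its 30 receptors, 13 were called higher and 7 lower under 2-hexanone, and 11 higher and 8 lower in vehicle. Calls in both directions were also found among the receptors outside the cluster. There 36.2% were higher and 21.3% lower under 2-hexanone, and 36.2% and 21.6% in vehicle. The highest fitted difference in the cluster under 2-hexanone was that of Olfr1463, with 13.10, 12.25, 12.36 and 12.28 in GFP+ cells, against 8.01, 7.45, 7.98 and 7.47 in GFP- cells. In vehicle Olfr1463 had 13.14, 12.74, 11.45 and 11.84 in GFP+ cells, against 9.26, 8.64, 8.48 and 7.50 in GFP- cells. It was 27.3-fold higher under 2-hexanone (difference 4.77 ± 0.37, SE, adjusted p = 2.21e-08) and 14.1-fold higher in vehicle (3.82 ± 0.37, adjusted p = 3.89e-07). Olfr1467 had 12.36, 12.26, 12.51 and 11.67 in 2-hexanone GFP+ cells, against 8.41, 7.74, 7.88 and 6.47 in GFP- cells. In vehicle Olfr1467 had 12.60, 12.29, 12.81 and 12.01 in GFP+ cells, against 9.37, 6.61, 7.30 and 7.72 in GFP- cells. Its GFP- pools were spread far more widely than its GFP+ pools, and 3 of 4 GFP- arrays in each treatment were above the floor. The differences were 4.57 ± 0.46 and 4.68 ± 0.46 (SE), or 22.6-fold and 25.0-fold once the other array was raised to its floor.

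Other MOR202 receptors higher in GFP+ cells covered a wide range. Olfr1469 had 9.77, 9.26, 9.74 and 9.95 in 2-hexanone GFP+ cells, all 4 GFP- arrays (5.23 to 5.85) were under the floor, and it was at least 7.82-fold higher. In vehicle it differed by 2.97 ± 0.32 (SE), with 3 of 4 GFP- arrays above the floor. Olfr1480 was at least 7.66-fold higher under 2-hexanone and at least 5.28-fold higher in vehicle, and its GFP- arrays were all under the floor. Olfr1448 was above the floor everywhere and was 10.5-fold and 7.60-fold higher, and Olfr1443 was 6.75-fold higher in vehicle and, with 2 of 4 GFP- arrays set to the floor, 10.3-fold higher under 2-hexanone. Olfr1461 had 1 of 4 GFP- arrays above the floor under 2-hexanone and 2 of 4 in vehicle, and was 4.57-fold and 4.38-fold higher with the others at it. Olfr1454 had 1 of 4 in each treatment and was 3.24-fold and 4.55-fold higher in the same way. Olfr1449 had differences of 2.27 and 1.87, Olfr1444 of 1.73 and 1.81 and Olfr1445 of 1.37 and 1.37, but these lay near or under background in both fractions. Raising values to the floor left them at 0.29 or less under 2-hexanone, where none of the 3 then passed. In vehicle, Olfr1449 had 4 of 4 GFP+ and 0 of 4 GFP- arrays above the floor and was at least 1.75-fold higher. There it still passed with values raised to the floor, while Olfr1444 and Olfr1445 did not. The Olfr1445 call ended without 2-hexanone replicate 2 or 3 and without vehicle replicate 2 or 4, and the Olfr1449 vehicle call without vehicle replicate 2 or 4.

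On the low side of MOR202, Olfr1447 had the largest fitted difference of the cluster, in part against values under the floor. It had 6.69, 6.06, 6.33 and 7.01 in 2-hexanone GFP+ cells, against 13.85, 13.06, 12.93 and 13.26 in GFP- cells. In vehicle it had 7.13, 7.16, 7.99 and 6.20 in GFP+ cells, against 13.41, 13.20, 12.80 and 13.20 in GFP- cells. Olfr1447 was thus among the brightest receptors of the cluster in GFP- cells and close to background in GFP+ cells, where 1 of 4 arrays under 2-hexanone and 3 of 4 in vehicle were above the floor. The differences were -6.75 ± 0.31 (SE, adjusted p = 4.76e-11) and -6.03 ± 0.31 (adjusted p = 1.3e-10), which is 83.9-fold and 61.9-fold lower with the other arrays at their floor. Its neighbour Olfr1446 was at least 7.27-fold lower under 2-hexanone and at least 6.69-fold lower in vehicle, with fitted differences of -5.46 and -4.70. Olfr1451 was at least 6.33-fold and at least 11.02-fold lower, Olfr1442 at least 4.61-fold and at least 6.27-fold, and Olfr1489 at least 4.80-fold and at least 4.19-fold. Olfr1477, with 2 of 4 GFP+ arrays above the floor in each treatment, was 6.87-fold and 7.91-fold lower with the others at it. Olfr1450 differed by -3.58 and -3.07, but only 3 of 4 GFP- arrays under 2-hexanone and 2 of 4 in vehicle rose above background, and its call was lost with values raised to the floor. Olfr1472, called in vehicle at -0.95 (adjusted p = 0.0213), was under background everywhere. It lost the call without vehicle replicate 2 (limma adjusted p = 0.146), after quantile normalization (0.12), after centring (0.0755) and with values raised to the floor (0.711).

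Several bright MOR202 receptors did not differ past the threshold between the fractions. Olfr1484 averaged 11.39 ± 0.09 in 2-hexanone GFP+ cells and 11.18 ± 0.39 in GFP- cells, and 10.85 ± 0.44 in vehicle GFP+ cells and 10.76 ± 0.43 in GFP- cells (SD, n = 4 each). The 95% intervals of its differences were -0.32 to 0.74 and -0.44 to 0.62. For Olfr1471 they were -0.73 to 0.41 and -0.71 to 0.44. Olfr1466 had intervals of -0.26 to 1.47 and -0.57 to 1.16, and Olfr1474 of 0.06 to 1.19 and 0.07 to 1.20. Olfr1474 passed the threshold in both treatments after centring and without 2-hexanone replicate 1 (0.92 and 0.63). Of the 15 receptors of the cluster called in neither treatment, 6 were above the floor on all arrays, 7 were under it on all arrays and 2 were above it on some.

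Of the 7 MOR212 and MOR211 receptors at the end of the cluster, 5 were called higher and 1 lower in each treatment. All 4 MOR212 receptors were higher in GFP+ cells in both treatments. Olfr1501 had 10.23, 9.12, 10.38 and 9.61 in 2-hexanone GFP+ cells, against 7.48, 5.96, 6.41 and 4.89 in GFP- cells. In vehicle Olfr1501 had 10.72, 10.81, 10.06 and 9.58 in GFP+ cells, against 7.27, 7.31, 6.38 and 5.97 in GFP- cells. The fractions did not overlap, and the differences were 3.65 ± 0.46 (SE, adjusted p = 9.77e-06) and 3.56 ± 0.46 (adjusted p = 1.32e-05). Only 1 of 4 GFP- arrays under 2-hexanone and 2 of 4 in vehicle were above the floor, and with the others at it Olfr1501 was 7.41-fold and 10.95-fold higher. Olfr1497 was at least 3.44-fold and at least 4.73-fold higher. Olfr1500, measured on every array, was 3.38-fold and 3.14-fold higher. Olfr1504 differed by 2.53 and 2.43, with 2 of 4 GFP+ arrays above the floor in each treatment, and did not pass with values raised to the floor. Among the 3 MOR211 receptors, Olfr1505 was at least 3.02-fold higher under 2-hexanone and 2.95-fold higher in vehicle with 3 of 4 GFP- arrays at their floor, Olfr1502 did not pass (-0.42 and -0.11), and Olfr1499 was lower by -2.06 and -1.62 but under background on all arrays. Olfr1496, the lone MOR127 receptor, differed by -0.29 (95% interval -1.23 to 0.66) and 0.44 (-0.50 to 1.38).

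Neighbouring receptors did not share a direction throughout. Order was counted over members alone, also across the gaps between stretches. Of 49 pairs of members adjacent in order, 20 had both members called in both treatments, 13 of them in the same direction and 7 in opposite directions. Among the 13, Olfr1443 and Olfr1444 lie on either side of a gap between stretches. With values raised to the floor, 12 pairs were called throughout, 9 in the same direction and 3 in opposite directions. The 3 opposite pairs were Olfr1442 (lower) and Olfr1443 (higher), Olfr1447 (lower) and Olfr1448 (higher), and Olfr1477 (lower) and Olfr1480 (higher).

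Close copies in the cluster were compared through the start of their coding sequence. The reference windows of 40 members read ATG at the annotated gene start, which was taken as the coding start. Of the 50 members, 47 had a RefSeq window (assembly GRCm38.p6). Among those 40 there were 780 pairs, and the 12 pairs alike in at least 45 of the first 50 coding bases were compared. Likeness was counted position by position without gaps. The starts are printed for the identical pair Olfr1446 and Olfr1447 and for near-identical receptors shown in the plot of pairs. Olfr1487, alike with Olfr1480 in 49 bases, is printed too but is not in the plot. All run 5′ to 3′ with the start codon in capitals.
Olfr1446 (chr19:12890526-12890575, minus strand): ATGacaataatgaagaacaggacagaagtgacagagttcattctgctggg
Olfr1447 (chr19:12901729-12901778, minus strand): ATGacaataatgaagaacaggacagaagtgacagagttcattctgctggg
Olfr1463 (chr19:13234252-13234301, plus strand): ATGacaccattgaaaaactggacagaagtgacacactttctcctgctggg
Olfr1466 (chr19:13341760-13341809, plus strand): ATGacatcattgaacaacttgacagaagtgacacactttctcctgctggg
Olfr1480 (chr19:13529675-13529724, plus strand): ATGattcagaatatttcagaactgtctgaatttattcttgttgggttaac
Olfr1484 (chr19:13585306-13585355, plus strand): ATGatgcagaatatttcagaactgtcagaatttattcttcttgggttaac
Olfr1487 (chr19:13619164-13619213, plus strand): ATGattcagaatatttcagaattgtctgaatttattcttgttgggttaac
Olfr1502 (chr19:13861795-13861844, plus strand): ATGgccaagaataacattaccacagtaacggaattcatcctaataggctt
Olfr1505 (chr19:13919022-13919071, plus strand): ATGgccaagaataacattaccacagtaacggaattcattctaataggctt

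For each pair, the GFP+ minus GFP- differences of both receptors were compared within the 8 pools by an exact two-sided sign-flip permutation test, whose smallest possible p is 0.0078, adjusted over the 12 pairs. Both members were above the floor on all 16 arrays in 2 of the 12 pairs. In one of them, Olfr1463 and Olfr1466, alike in 47 bases, had 4.29 ± 0.67 and 0.45 ± 0.71 (SD, n = 8 pools; exact adjusted p = 0.0117, higher for Olfr1463 in 8 of 8 pools). In the other, Olfr1471 and Olfr1474 had -0.15 ± 0.55 and 0.63 ± 0.47 (exact adjusted p = 0.0117, lower for Olfr1471 in 8 of 8 pools). In 9 pairs a member was under the floor on all 8 arrays of a fraction, and in 4 of these on all 16 arrays, so values raised to the floor are given for the rest. Olfr1480, whose GFP- arrays were all under the floor, then had 2.67 ± 0.72, against 0.15 ± 0.39 for Olfr1484 (47 bases), and was higher in 8 of 8 pools (exact adjusted p = 0.0117). Olfr1505 then had 1.58 ± 0.42 and Olfr1502, alike in 49 bases, -0.14 ± 0.44, with Olfr1505 higher in 8 of 8 pools (exact adjusted p = 0.0117). Olfr1446 and Olfr1447, identical in all 50 bases, were both lower in GFP+ cells, but the GFP+ arrays of Olfr1446 were all under the floor and its difference is a bound, so the pair was not ordered. As deposited, 11 of the 12 pairs passed and Olfr1472 and Olfr1475 did not (exact adjusted p = 0.0859). With values raised to the floor 9 passed, and Olfr1484 with Olfr1487 (exact adjusted p = 0.861) and Olfr1472 with Olfr1474 (0.0656) no longer did. Both counts include Olfr1446 with Olfr1447. They also include pairs with a member under the floor on all 16 arrays, Olfr1445 with Olfr1448 and Olfr1453 with Olfr1459. Passing does not order such pairs, since a difference in them is a bound or not measured. How far copies share hybridisation to each other's probes was not tested, and the rest of the coding sequences was not used here.

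**Figure D3:**
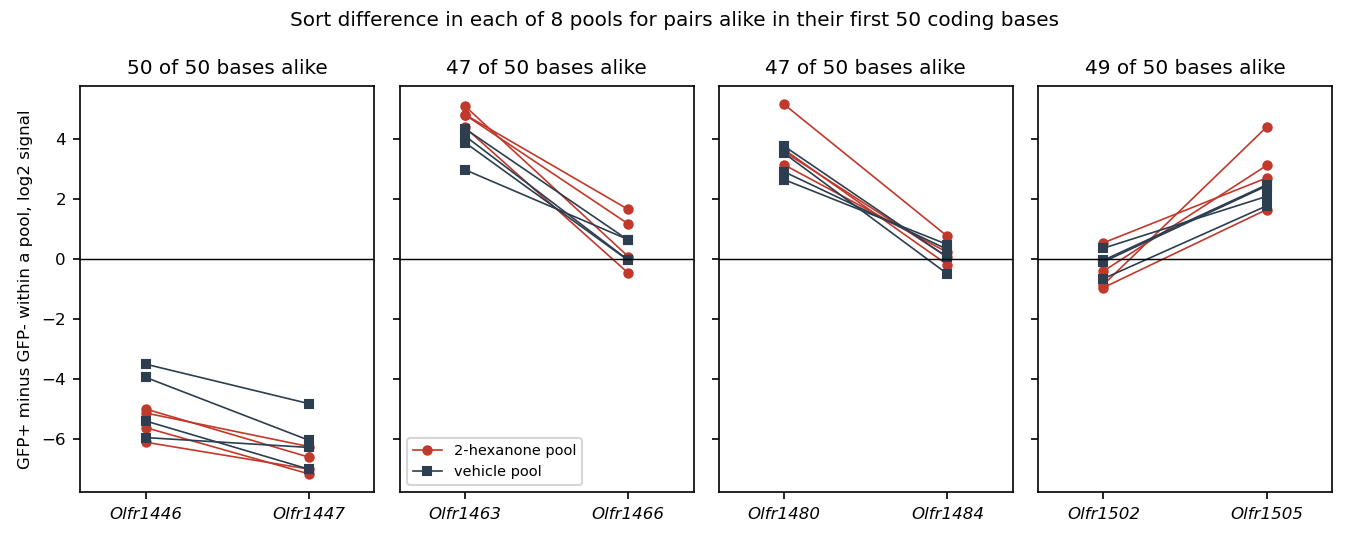
GFP+ minus GFP- log2 signal (vertical axis) of both receptors of 4 pairs alike in their first 50 coding bases (horizontal axis), with a line for each of 4 2-hexanone pools (red circles) and 4 vehicle pools (dark squares), values as deposited. Olfr1446 and Olfr1447 both lie below 0, while in the other pairs 1 receptor averages 2.58 to 4.29 and the other -0.26 to 0.45. Olfr1463 and Olfr1466 alone of these pairs were above the floor on all arrays.

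The sort differences of the cluster were closely correlated between the treatments. Across the 50 receptors, the differences in the 2-hexanone and in the vehicle arrays, which share no array, had a Pearson r of 0.989 and a Spearman rho of 0.986; this is across genes, which are not independent replicates. The 1030 receptors outside the cluster had an r of 0.975. Of the 50, 16 were called higher in both treatments, 16 lower in both and 0 in opposite directions. Olfr1459 and Olfr1487 passed under 2-hexanone and not in vehicle, and Olfr1472 in vehicle and not under 2-hexanone, but the change between treatments passed for 0 of the 3. Olfr1459 was above the floor on all arrays, with 1.37 ± 0.42 under 2-hexanone (adjusted p = 0.0349) and 1.22 ± 0.42 in vehicle (SE, adjusted p = 0.0595, 0.0229 with the pools as a block). Its 2-hexanone call ended without any of 2-hexanone replicates 2, 3 and 4 or vehicle replicate 3 (adjusted p = 0.0502 to 0.219). The Olfr1487 call (1.30, adjusted p = 0.0399) ended without any 2-hexanone replicate and without vehicle replicate 2. Under 2-hexanone, 2 of 4 GFP+ and 0 of 4 GFP- arrays of Olfr1487 were above the floor. Its difference was 0.20 with values raised to the floor (limma adjusted p = 0.961).

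2-hexanone itself changed none of the 50 members past the threshold in limma. That held in GFP+ cells (0 of 50, where 0.00901% of all probe sets were called) and in GFP- cells (0 of 50, where 0% were called). It also held for the change of the sort difference (0 of 50, 0.00901%). The 4 receptors left out of the range are not in these counts, which therefore do not describe the whole symbol range. Of those 4, 1 was called higher in GFP+ cells and 1 for the change of the sort difference. The largest differences among the 4 were 2.81 and 2.77. At an unadjusted p under 0.05 there were 6, 3 and 1 members, beside 3.91%, 2.46% and 2.93% of all probe sets. Over the receptors outside the cluster those shares were 7.67%, 5.34% and 3.88%. The median odor difference of the 50 was 0.11 in GFP+ cells and 0.01 in GFP- cells, where all probe sets had 0.00 and 0.00. Fitted differences ran from -0.60 to 1.10 in GFP+ cells and from -0.96 to 0.63 in GFP- cells. The 95% intervals of all 50 stayed within 2 log2 units of 0 in both fractions, and those of 26 receptors in GFP+ cells and 21 in GFP- cells stayed within 1. For the others a change of 1 log2 unit lay inside the interval. The 2-hexanone and vehicle arrays did not overlap for Olfr1502 in GFP+ cells (lower, -0.44) and Olfr1440 in GFP- cells (higher, 0.41), where 1% and 0.941% of all probe sets were separated in those directions. For Olfr1502, 1 of 4 2-hexanone and 3 of 4 vehicle GFP+ arrays were above the floor, and its difference was 0.10 with the 2-hexanone side at the floor.

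In GFP+ cells the lowest p belonged to Olfr1428, whose values were given above. Its 2-hexanone mean of 11.37 ± 0.75 and vehicle mean of 10.28 ± 0.87 (SD, n = 4 each) differed by 1.10 (95% interval 0.26 to 1.93, unadjusted p = 0.0133, limma). The groups overlapped. Olfr1489 followed with 0.73 (0.09 to 1.37), under the floor in both groups, and Olfr1431 with 0.71 (0.04 to 1.37), with 3 of 4 arrays above it in each. In GFP- cells the lowest p was that of Olfr1469, with 5.39, 5.69, 5.85 and 5.23 under 2-hexanone, against 6.99, 6.85, 7.03 and 5.12 in vehicle. The vehicle replicate 4 array stood apart from the other vehicle arrays, and all 2-hexanone arrays lay under the floor. The fitted difference was -0.96 (95% interval -1.64 to -0.28, unadjusted p = 0.00852, limma) and -1.42 without vehicle replicate 4 (adjusted p = 0.0908). It rests on values under the floor: it was 0.21 with the 2-hexanone arrays set to the floor and -0.06 with both groups raised to it, so no fold is given. Olfr1443 followed with -0.80 (-1.44 to -0.15), with 2 of 4 2-hexanone arrays above the floor, and Olfr1471 with 0.63 (0.06 to 1.20). Olfr1469 also had the lowest p for the change of the sort difference, at 1.17 (0.21 to 2.14, unadjusted p = 0.0201, limma), which uses the same GFP- values and was 0.27 with values raised to the floor.

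**Figure D4:**
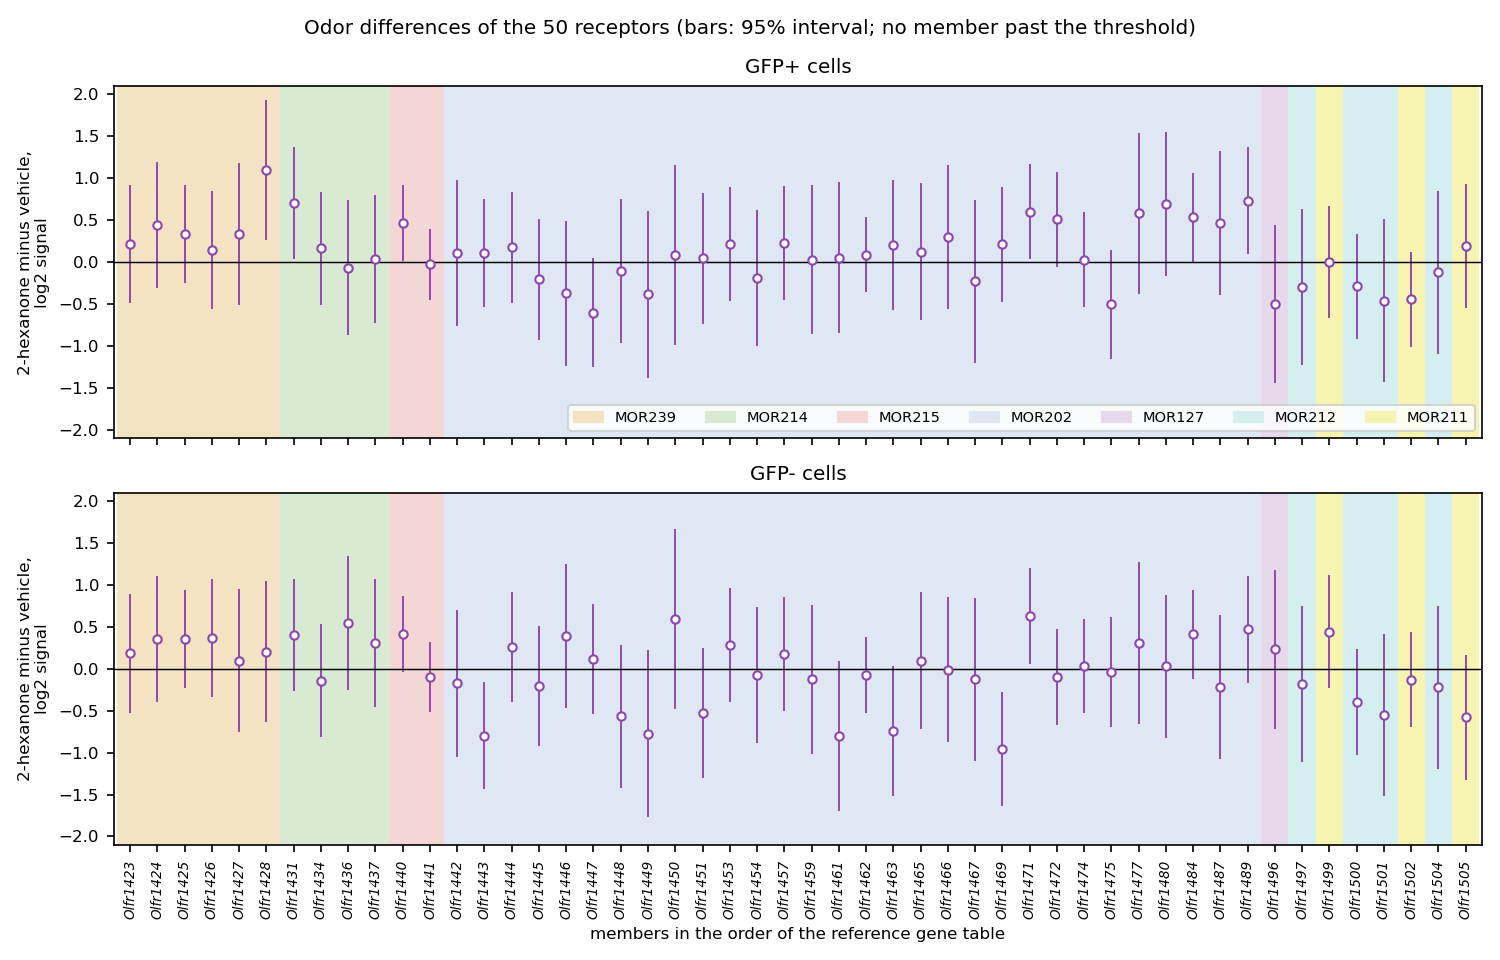
2-hexanone minus vehicle difference in log2 signal (vertical axis) of the 50 receptors in gene table order (horizontal axis), in GFP+ cells (upper panel) and GFP- cells (lower panel). Bars are 95% intervals and background colours mark MOR families; no receptor passed the threshold, and every interval lies within 2 log2 units of 0.

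Among the other genes of the region, 8 lay between cluster receptors, 6 before and 10 after them within 10 genes. None of the 6 before was called in either sort comparison. Of the 8 within, Mpeg1, a perforin-like protein of macrophages, had 5.19 ± 0.54 in 2-hexanone GFP+ cells and 10.90 ± 0.48 in GFP- cells (SD, n = 4 each), at least 18.0-fold lower, and was at least 21.8-fold lower in vehicle. Fam111a was lower by -2.94 and -3.30, and Glyat was higher by 1.26 under 2-hexanone but under background. After the cluster, Tle4, a Groucho family corepressor, was 3.59-fold and 4.52-fold lower, and Gcnt1, a glycosyltransferase, was at least 1.61-fold and at least 1.80-fold lower. Gna14 under 2-hexanone (0.80) and Psat1 in vehicle (-0.90) were called under background.

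Of 18 genes for receptor choice, transport and signal transduction, 1 was called higher under 2-hexanone (5.29% of all probe sets) and 2 in vehicle (5.83%), and 0 were called lower in either. The difference was positive for 16 of the 18 in each treatment. The fractions did not overlap for 7 higher and 1 lower under 2-hexanone and for 6 higher and 0 lower in vehicle, beside 9.4% and 10.6%, and 9.01% and 10%, of all probe sets. The channel gene Ano2 was higher by 0.68 and 0.64, and the cyclase gene Adcy3 by 0.50 in vehicle. Odor changed 0 of the 18 in GFP+ cells and 0 in GFP- cells, with 0 at an unadjusted p under 0.05 in limma.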

How the data were processed

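The authors deposited a log2 value per probe set and array, from 50 to 100 ng of RNA, per the labels' protocols. The submitters' processing notes name Affymetrix Expression Console. The sources used here give no version, summarisation method, annotation build or transformation. Of 28846 probe sets, 6640 control rows were left out and 22206 tested. A platform table gave 19572 of them 1 symbol. MOR family names and gene order came from the GRCm38.p6 gene table, which matched all 19572 Entrez identifiers, and sequences from RefSeq windows of that assembly.

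The cluster receptors and gene lists were chosen with earlier results of these data known. The naming rule took the 10 highest and 10 lowest called members of each sort comparison, the 3 of lowest p in each odor comparison, the brightest 5 and dimmest 3, and the extremes of each family; other members are named for level or place, and Olfr1459, Olfr1472, Olfr1474, Olfr1484 and Olfr1502 also for calls or pairs seen in the data.

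limma 3.58.1 in R 4.3.3 fitted 4 group means over 16 arrays with 12 residual degrees of freedom, without a block. Benjamini-Hochberg adjustment ran over all 22206 probe sets at a threshold of 0.05. The pipeline was checked on simulated data. A fold is "at least" where every array of the dimmer group was under its floor: the brighter mean against, per array, whichever was higher, floor or value. Arrays give no counts, so the 4 pools a group limit the precision. Plots used Python 3.11.15 and matplotlib 3.10.9.

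By the sample titles, each pool of mice gave a GFP+ and a GFP- sample, so these are paired. The correlation between the deviations of a pool's paired samples was 0.425, 0.0749, 0.161 and 0.109 in 2-hexanone and 0.352, 0.0136, 0.0516 and 0.0837 in vehicle pools 1 to 4. Between the 2-hexanone and vehicle pools of replicate 1 it was 0.419 in GFP+ and 0.354 in GFP- cells. For replicates 2 to 4 it ran from 0.0310 to 0.214 between the treatments. The higher replicate 1 values were thus not limited to samples of 1 pool. Alternatives were the pool as a fixed or a random block, quantile normalization, centring, a trended robust prior and fits on the arrays compared alone. Others left out the lowest 20% of probe sets (46 members remained) or each pool in turn. Chosen after seeing the data were leaving out both replicate 1 pools and raising values to the floor. In the fixed block fit, the odor comparisons within a fraction used the replicate number as the block instead of the pool. The labels do not say that equal replicate numbers of the treatments are matched.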

Additional observations from a re-analysis of the deposited data

Results flagged for a closer look

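Of 140 groups of 4 arrays, for 35 named receptors, 8 had a highest or lowest array whose gap to the nearest of the others was too large a share of the group's range by Dixon's test at the 95% level. Chance gives about 1 in 20 groups. Among vehicle GFP- arrays, 3 of the 8 fell on replicate 4, always as the lowest: Olfr1469 had 5.12 (mean of the other 3 arrays 6.96), Olfr1477 had 7.89 (10.13) and Olfr1497 had 3.99 (5.995). Without vehicle replicate 4, the vehicle sort differences were 2.50 for Olfr1469, -3.71 for Olfr1477 and 3.13 for Olfr1497, against 2.97, -3.44 and 3.30 with it, and all still passed (limma adjusted p of 4.99e-07, 5.24e-07 and 2.73e-06). In 2-hexanone GFP+ cells, replicate 1 was the highest for Olfr1463 at 13.10 (12.30) and the lowest for Olfr1484 at 11.25 (11.43), and replicate 3 was the highest for Olfr1465 at 4.62 (3.30). In vehicle GFP+ cells, replicate 1 was the highest for Olfr1437 at 6.11 (4.91) and replicate 3 for Olfr1453 at 4.73 (3.25). The values of Olfr1437, Olfr1453 and Olfr1465, and those of Olfr1469 and Olfr1497 on vehicle replicate 4, were under the background floor of their arrays.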

How the results depend on the processing

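The counts of called cluster receptors stayed within 1.5 times the reported ones under all 17 alternatives. Higher and lower calls ran from 13 to 22 and 14 to 17 under 2-hexanone and from 14 to 21 and 14 to 17 in vehicle. Leaving out 1 pool at a time gave 15 to 18 higher and 16 to 17 lower under 2-hexanone, and 14 to 18 and 16 to 17 in vehicle. Odor calls among the 50 stayed at 0, with 2 to 7 members in GFP+ cells and 1 to 9 in GFP- cells at an unadjusted p under 0.05. The 7 in GFP+ cells came with the replicate number as the block. With the pool as a fixed block there were 18 higher and 17 lower under 2-hexanone and 17 and 17 in vehicle. The pairing added the calls of Olfr1436 (2-hexanone, -1.11) and Olfr1459 (vehicle, 1.22) and changed no other. Centring moved the median sort difference of the 50 to 0.55 under 2-hexanone and 0.60 in vehicle. Raising values to the floor left 13 higher and 14 lower under 2-hexanone and 14 and 14 in vehicle, and turned Olfr1499 under 2-hexanone to 0.0152 and Olfr1445 in vehicle to -0.10, since both fractions then lie at the floor. Representing a gene by its lowest probe set was not run, since each member has 1. Signal near background, for 27 receptors on some arrays and 10 on all, limits what these differences can show.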
